A study of Mus musculus with 2 samples.

Results

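GATA4 occupied sites (OS) were examined at 10 genes of the hypoxia response in whole liver of adult mice: Epas1, Hif1a, Hif3a, Arnt, Egln1, Egln3, Vhl, Vegfa, Adm and Epo. The OS were defined by position, as sites of the common list whose midpoint lay in the body of one of these genes or within 50 kb of it, and 11 of the 4409 common OS met this rule, at 7 of the 10 genes. The genes themselves were chosen by earlier results on these same OS, Epas1 for the number of its sites, so the counts of sites describe them and were not tested. The mice were of a mixed C57BL/6 x Sv129 background and 2 to 3 months old by the labels. The paper's methods give a slightly older age range for the ChIP livers. GATA4 ChIP was done with the C-20 antibody on whole liver, and input DNA without antibody from liver of the same strain and age was the background. The methods name a pair of biological replicates of pooled livers, but every list covers them together, so 1 ChIP sample was available and no value has a replicate error. Whole liver mixes hepatocytes with endothelial and other cells, and a site cannot be placed in one of them from these lists. In the paper, hepatocyte-specific Gata4 excision led to nearly complete loss of GATA4 at the sites it examined in all liver cells. The authors read this as occupancy in hepatocytes. Those sites were at factor X, FOG1, HNF4α and HNF6, and none was at the 10 genes.

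Cells sense oxygen through hypoxia-inducible factors (HIF), which pair an alpha subunit (HIF1α from Hif1a, HIF2α from Epas1, HIF3α from Hif3a) with the shared beta subunit ARNT. In the presence of oxygen, prolyl hydroxylases (PHD2 from Egln1, PHD3 from Egln3) mark the alpha subunit, and the von Hippel-Lindau protein (Vhl) delivers it to a ubiquitin ligase for destruction. When oxygen falls, the pair binds hypoxia response elements and raises secreted products such as VEGF-A (Vegfa), adrenomedullin (Adm) and erythropoietin (Epo). HIF2α is prominent in endothelial cells and in hepatocytes, where it takes part in erythropoietin and iron control.

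Of the 7 genes with an OS, Epas1 held 5 and Hif3a, Arnt, Egln1, Vhl, Vegfa and Epo held 1 each. No common OS lay within 50 kb of Hif1a, Egln3 or Adm. By the same rule, 27.7% of the 22380 protein-coding genes and 23.1% of all 37310 annotated genes held at least 1 common OS. In the gene body itself there were 7 OS, 5 in Epas1 and 1 each in Egln1 and Epo, and 7.67% of the protein-coding genes had 1 or more there. The other 4 OS all lay downstream of their gene, between 20.5 and 43.6 kb from its end.

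**Figure D1:**
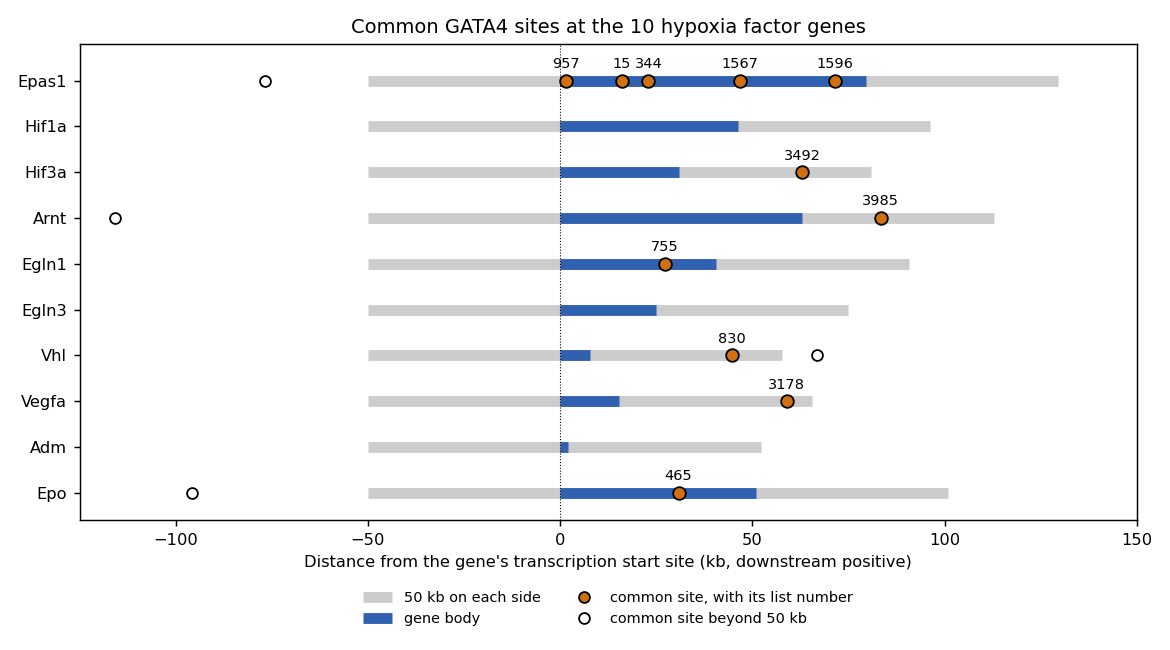
Position of the common GATA4 OS at the 10 genes, in kb from each gene's transcription start site with downstream positive. Blue bars are gene bodies, grey bars the 50 kb on each side, filled points the 11 OS with their list number, and open points OS beyond 50 kb. The 5 OS of Epas1 run through its body, while Hif1a, Egln3 and Adm have none.

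The lists from SPP and from MACS2 gave the same genes. The common list is the intersection of both, with SPP coordinates, so agreement on the genes with an OS was largely fixed in advance. Only a gain of a peak at Hif1a, Egln3 or Adm could have differed, and neither list had one. SPP placed 11 peaks at the same 7 genes (29.2% of protein-coding genes held 1 or more SPP peaks), and MACS2 placed 12 (33.9% of protein-coding genes). Each of the 11 OS overlapped exactly 1 MACS2 peak, where the intersection itself requires at least 1. All 3 files carry a display score of 1000 for every peak, which holds no information on strength. The number of a peak in its list was therefore used as the sole order that the files give, and they do not state what the numbering follows. To compare replicates, the paper ranked SPP peaks on signal value but MACS2 peaks on p-value. Whether the numbers keep those orders is not known, so places in the lists may measure different things.

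Epas1, the gene for HIF2α, spans chr17:87153247-87232750 on the plus strand (79.5 kb, 1 annotated transcript). Its 5 OS took numbers 957, 15, 344, 1567 and 1596 of the 4409 from the start of the gene to its end. OS number 957 (204 bp) was 1.59 kb downstream of the transcription start site (TSS), OS number 15 (330 bp) 16.0 kb and OS number 344 (205 bp) 22.9 kb, and these 3 lay in intron 1, which is 42.8 kb long. OS number 1567 (134 bp, 46.8 kb from the TSS) was in intron 2 and OS number 1596 (208 bp, 71.4 kb) in intron 9. None of the 5 touched an exon, and Epas1 was the sole annotated gene within 50 kb of them. OS number 15 stood near the head of the list, with 0.318% of the common OS before it, and its MACS2 peak was number 45 of 5867.

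**Figure D2:**
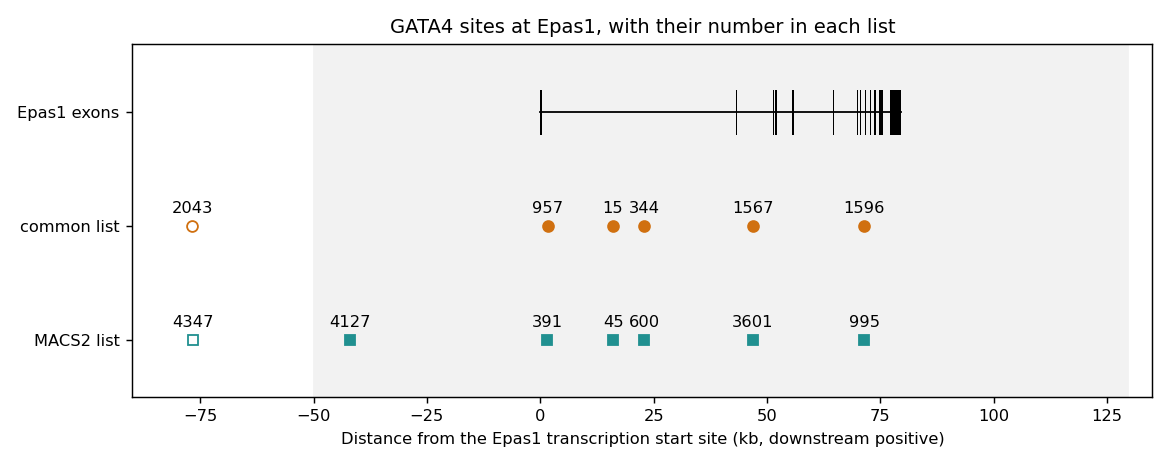
GATA4 sites along Epas1, in kb from its transcription start site, with black bars for exons. Circles are common OS and squares MACS2 peaks, each with its list number, and symbols are open beyond the shaded 50 kb reach. Each of the 5 filled circles has a square beneath it, and MACS2 peak 4127 at -41.9 kb has no circle above it.

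The sites were spread over the gene rather than packed into a single cluster. Neighbouring midpoints were 14.4, 6.90, 23.9 and 24.6 kb apart, so that just 1 pair, numbers 15 and 344, lay within 10 kb of each other, and the whole group covered 69.8 kb. Elsewhere in the genome, and with this one included, 29 stretches held 5 or more common OS at such a span, with 166 OS in them. Of the protein-coding genes, 0.474% held 5 or more common OS in the body or within 50 kb, and 0.112%, which is 25 genes, held 5 or more in the body alone. Longer genes had more room for sites, and these 25 genes were 55.1 to 4435 kb long. Epas1 had 6.29 OS per 100 kb of its body. Among the 25, only Zfpm1 (7 OS in 55.1 kb), the gene for the GATA cofactor FOG1, was shorter or had more OS per length. The cut at 5 OS in the body left out short genes with fewer OS, some of which were denser than Epas1. Examples are Amotl2 (2 OS in 16.7 kb) and Tef (2 OS in 24.4 kb). Density was not ranked over all genes, so the place of Epas1 holds only within the 25. Prkce (10 OS in 490.1 kb), Arhgap26 (10 OS in 774.8 kb) and Bach2 (9 OS in 347.3 kb) had more sites in longer bodies. So did Gm20388 (34 OS in 4435 kb), which had the most, and Fgfr2 (9 OS in 3009 kb), and these had the longest annotated bodies of the 25.

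**Figure D3:**
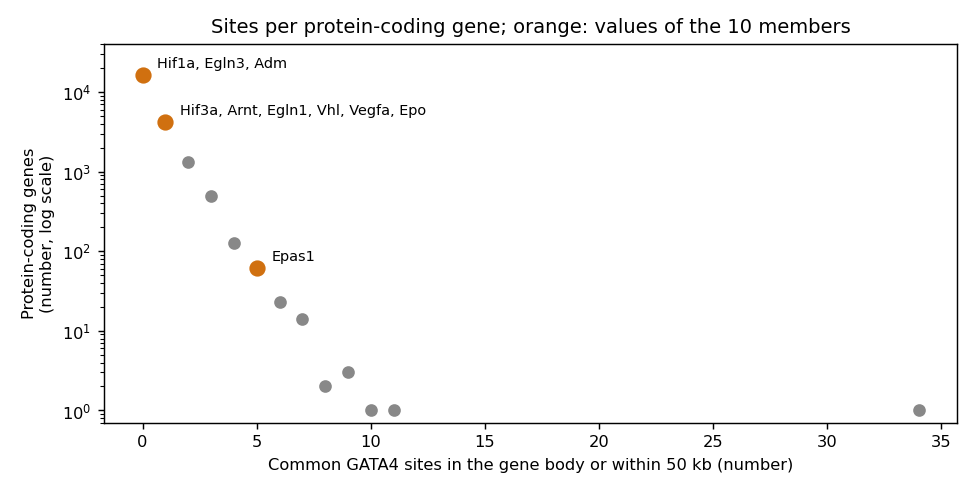
Number of protein-coding genes (log scale) with a given number of common GATA4 OS in the body or within 50 kb. Orange points carry the names of the 10 hypoxia genes at their values of 0, 1 and 5. Most genes have no OS, and Epas1 is among the 61 genes with 5.

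The DNA of the Epas1 sites is shown because the motif that GATA4 recognises can be read in it directly. Sequences are from the plus strand of mm9 (NCBI Build 37), and capitals mark WGATAR, in which W is A or T and R is A or G, read on either strand. For OS number 15, the central 200 bp of its 330 bp are given.
OS 957, intron 1, chr17:87154736-87154939: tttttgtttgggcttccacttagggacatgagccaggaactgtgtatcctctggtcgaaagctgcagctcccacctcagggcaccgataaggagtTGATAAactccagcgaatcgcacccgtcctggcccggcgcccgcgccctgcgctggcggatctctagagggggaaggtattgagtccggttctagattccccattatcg
OS 15, intron 1, chr17:87169179-87169378: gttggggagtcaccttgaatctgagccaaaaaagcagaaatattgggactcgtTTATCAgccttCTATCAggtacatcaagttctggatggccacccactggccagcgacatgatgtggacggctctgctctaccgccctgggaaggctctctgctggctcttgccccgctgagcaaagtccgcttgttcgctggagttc
OS 344, intron 1, chr17:87176071-87176275: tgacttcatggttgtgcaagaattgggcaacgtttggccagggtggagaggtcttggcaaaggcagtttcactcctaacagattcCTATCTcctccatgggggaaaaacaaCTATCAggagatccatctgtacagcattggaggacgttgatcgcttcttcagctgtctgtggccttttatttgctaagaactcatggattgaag
OS 1567, intron 2, chr17:87200008-87200141: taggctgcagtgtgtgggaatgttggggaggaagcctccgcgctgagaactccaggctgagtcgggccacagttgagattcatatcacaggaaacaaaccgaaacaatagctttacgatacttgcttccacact
OS 1596, intron 9, chr17:87224573-87224780: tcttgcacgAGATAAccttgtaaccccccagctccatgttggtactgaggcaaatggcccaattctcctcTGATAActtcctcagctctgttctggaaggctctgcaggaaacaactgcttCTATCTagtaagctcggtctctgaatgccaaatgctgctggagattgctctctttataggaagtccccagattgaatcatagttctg

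Of these sequences, 4 carried the motif, and the numbers of matches were 1, 2, 2, 0 and 3 in gene order. OS number 957 held TGATAA 4 bp from its midpoint. In OS number 15 there were TGATAA and TGATAG, both on the minus strand, whose first bases were 11 bp apart. Of the 1529 common OS with 2 or more WGATAR, 14.5% had a pair as close as that. OS number 344 likewise had its matches, AGATAG and TGATAG, on the minus strand at 26 bp from each other, on either side of the midpoint. OS number 1596 had AGATAA and TGATAA on the plus strand and AGATAG on the minus strand, the most matches among the 11 OS. OS number 1567 had no WGATAR, though it held 2 GATA cores.

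The places of the 5 Epas1 OS in the MACS2 list were 391, 45, 600, 3601 and 995 in gene order, against 957, 15, 344, 1567 and 1596 in the common list. OS number 15 led in both. The site without WGATAR, number 1567, fell farthest back in the MACS2 list and was also the narrowest of the 11. The MACS2 peaks around these OS were 419 to 832 bp wide and included the whole SPP interval in each case. One further MACS2 peak, number 4127, lay 41.9 kb upstream of the Epas1 TSS at chr17:87110831-87111864, between genes, and met no SPP peak. It was 1034 bp wide, and 11% of MACS2 peaks were at least this wide. It held 8 WGATAR, a number reached by 0.665% of MACS2 peaks, whose median was 2.

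**Figure D4:**
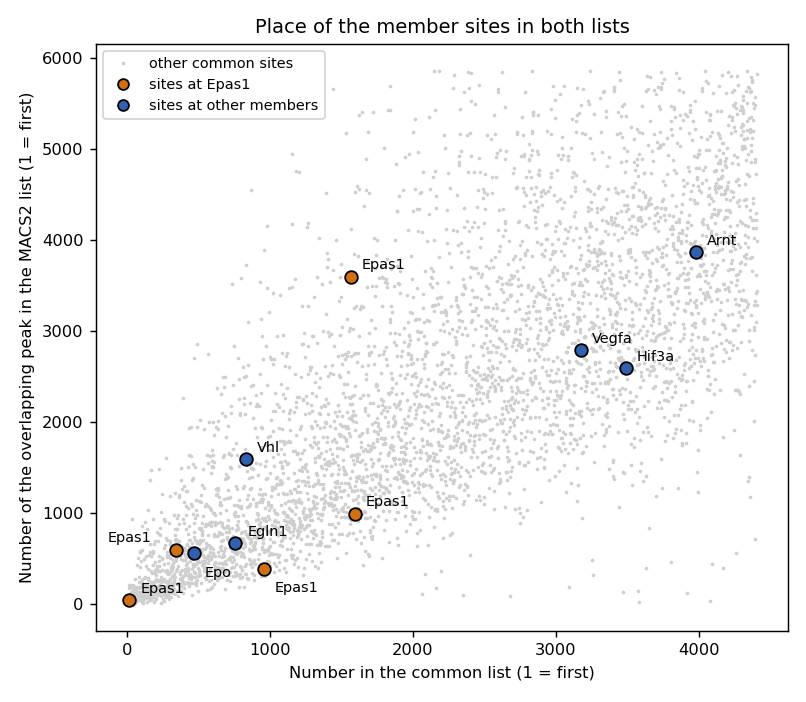
Number in the common list against the number of the overlapping MACS2 peak, where 1 is first, for all 4409 common OS (grey), the 5 OS at Epas1 (orange) and the 6 at other members (blue). The OS of Arnt, Hif3a and Vegfa are at numbers 3178 to 3985 of the common list, and the OS of Epas1, Egln1, Epo and Vhl are between 15 and 1596.

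The other alpha subunits differed from Epas1 in their sites. Hif1a, the gene for the broadly expressed HIF1α (chr12:75002362-75048517, 46.2 kb), had its nearest common OS 134.9 kb away, and its nearest MACS2 peak was at 132.4 kb. Hif3a, whose product can dampen HIF activity, lies on chr7:17616856-17647776 on the minus strand. Its single OS, number 3492 (chr7:17584663-17584825, 163 bp), was 32.1 kb beyond the end of the gene and 6687 bp downstream of the TSS of Ccdc8, the nearest start. Between this OS and Hif3a lies the gene Ppp5c, and the 50 kb windows of 4 protein-coding genes contained the OS. It had 2 AGATAA on the minus strand, 86 bp apart.

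Arnt, the shared partner of the alpha subunits (chr3:95238310-95301162, 62.9 kb), likewise had a single OS outside its body. OS number 3985 (chr3:95321486-95321805, 320 bp) was 20.5 kb beyond the gene, past the neighbouring Ctsk, and 9063 bp upstream of Ctss, the genes for the proteases cathepsin K and cathepsin S. It carried 1 TGATAA, 16 bp from the midpoint. It was the last of the 11 in the common list, with 90.4% of the common OS before it, and its MACS2 peak was number 3872.

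Of the prolyl hydroxylase genes, Egln1 had an OS in its body and Egln3 had none nearby. Egln1, which encodes PHD2, the main oxygen sensor of the pathway (chr8:127432496-127473154, minus strand, 40.7 kb), held OS number 755 in intron 1, 27.1 kb downstream of its TSS. The nearest annotated start was that of Gm505, at 24.2 kb. The OS was number 675 in the MACS2 list, where its peak was 971 bp wide. Its WGATAR matches, AGATAA on the minus strand and TGATAA on the plus strand, began 59 bp apart. Egln3, which encodes the hypoxia-inducible PHD3 (chr12:55279968-55304847), had its nearest common OS 256.5 kb away and its nearest MACS2 peak 158.1 kb away. The Egln1 sequence is shown as the sole site of this enzyme family, with capitals as above.
OS 755, Egln1 intron 1, chr8:127445899-127446126: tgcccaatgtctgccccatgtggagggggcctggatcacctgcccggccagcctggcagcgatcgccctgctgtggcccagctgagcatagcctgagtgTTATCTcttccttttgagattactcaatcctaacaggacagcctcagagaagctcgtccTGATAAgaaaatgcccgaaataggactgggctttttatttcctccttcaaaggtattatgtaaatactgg

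Vhl (chr6:113573953-113581627, 7.68 kb), which encodes the recognition subunit of the ligase for HIF alpha subunits, had OS number 830 at 36.9 kb beyond its end. This OS (chr6:113618444-113618607, 164 bp) lay inside Irak2, a gene of interleukin-1 signalling, in intron 3 of its transcript Irak2-001 and 319 bp upstream of the start of another Irak2 transcript. It held 1 TGATAG, 51 bp from the midpoint, and its MACS2 peak was number 1595. A further OS in Irak2, number 1319, was 59.1 kb from Vhl and so the first one outside the 50 kb limit, while the Vegfa site at 43.6 kb was the last one inside.

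Among the secreted targets, Vegfa had 1 distant OS, Epo 1 OS at the promoter of another gene, and Adm none. Vegfa, the gene for the main growth factor of blood vessels (chr17:46153942-46169326, minus strand, 15.4 kb), had OS number 3178 (chr17:46110206-46110525, 320 bp) at 43.6 kb beyond its end, with no other gene within 50 kb. It held AGATAG and AGATAA on the minus strand, 19 bp apart and 2 and 21 bp from the midpoint. The central 200 bp are given because no other annotated gene competes for this site.
OS 3178, downstream of Vegfa, chr17:46110266-46110465: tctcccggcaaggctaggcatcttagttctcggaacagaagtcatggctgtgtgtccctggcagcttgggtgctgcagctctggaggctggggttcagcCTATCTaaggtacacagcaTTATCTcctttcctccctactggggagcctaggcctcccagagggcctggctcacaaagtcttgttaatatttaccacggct

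Epo, the gene for the hormone that drives red cell formation, was annotated from 137923487 to 137974470 on chromosome 5 (minus strand), but this length came from a single transcript, Epo-001, of 50.2 kb. The other transcripts, Epo-002 and Epo-003, are 3.67 and 3.71 kb long, and the OS lay upstream of both starts, at -16.5 kb. OS number 465 (chr5:137943539-137943779, 241 bp) lay in intron 1 of Epo-001 and, at the same place, over the first exon and start of Pop7, which encodes a subunit of the RNA-processing enzymes RNase P and RNase MRP. Its midpoint was 6 bp from a Pop7 TSS. The site was unlike the other 10 in its base composition, with 29 CpG in 241 bp and a ratio of observed to expected CpG of 1.23, a value that 0.295% of the common OS reached. The other OS of the set had ratios of 0.176 to 0.775. It had no WGATAR, and its MACS2 peak, number 561 and 1289 bp wide, had none either. It held a single match to GATAR, shown in capitals within 30 bp.
OS 465, intron 1 of Epo-001, chr5:137943672-137943701: caagccggaaccGATAAgcttatggccttc

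Adm, the gene for the vasodilator peptide adrenomedullin (chr7:117771175-117773331, 2157 bp), had its nearest common OS 262.0 kb away. The nearest SPP peak was closer, at 156.6 kb, and had no counterpart in the common list.

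Across all 11 OS, 9 held WGATAR (81.8%, Wilson 95% interval 52.3 to 94.9), and the 2 without it were Epas1 number 1567 and the Epo site. Among all common OS the share was 82.9%, and in windows of equal width 5 kb to the right it was 31.9% for all OS and 4 of 11 for this set. The 11 OS came from 1 sample and 5 of them from 1 gene, so these shares are descriptions. Either WGATA or GATAR was present in 11 of 11 OS, against 92.9% of all common OS. For all its sites the paper reported higher shares of both, from the MEME suite rather than from exact matches as here. The number of WGATAR was 2 in 5 OS, 1 in 3 OS and 3 in 1 OS, and the most frequent number among all common OS was 1 (48.2%).

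**Figure D5:**
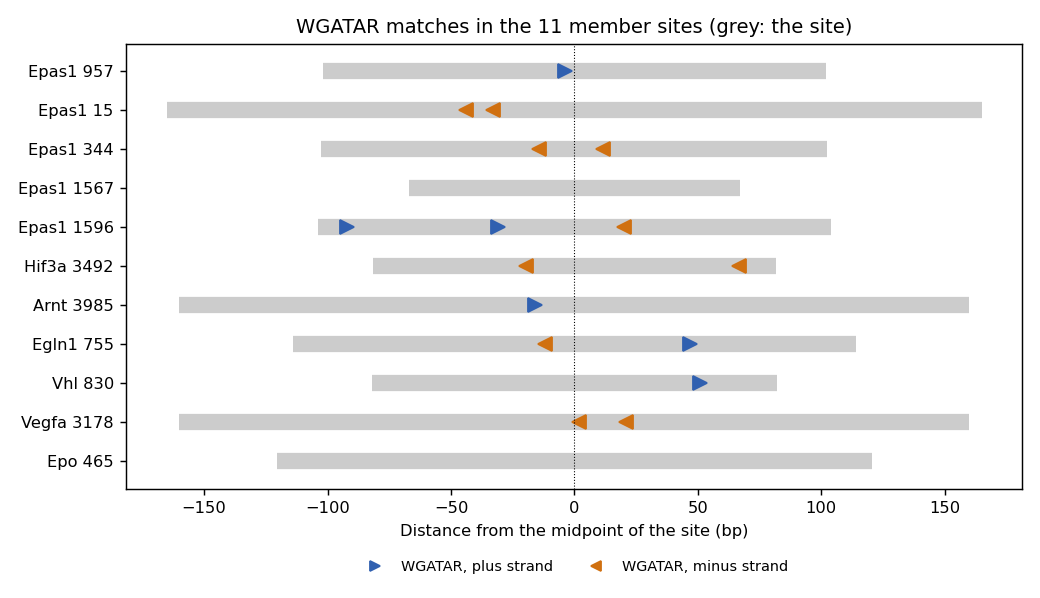
Matches to WGATAR along the 11 OS, in bp from the midpoint of each site. Grey bars are the sites, and arrowheads show matches on the plus (blue) and minus (orange) strand. All 16 matches lie within 92 bp of a midpoint, and Epas1 number 1567 and Epo number 465 have none.

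Other motifs were counted in the same intervals on both strands. The core of the hypoxia response element, ACGTG or GCGTG, occurred in 3 of the 11 OS, namely those of Hif3a, Arnt and Epo, and in 25.6% of all common OS. None of the 5 Epas1 OS held it within its interval. The wider MACS2 peaks around these OS did hold it, except number 995. The ETS words CCGGAA or AGGAAG were in 8 of 11 OS and in 47.7% of all common OS. AP-1 sites, TGANTCA, were in 2 OS, both at Epas1 (numbers 15 and 1596), and in 7.55% of all common OS. The FOXA word TGTTTAC was in 0 of 11 OS and in 6.26% of all common OS. The E-box CANNTG was in 7 of 11 and in 60.3% of all common OS, and its form CAGCTG in 2 of 11 and 16.1%. In windows of equal width 5 kb to the right of all common OS, the hypoxia core was in 17.7% and the ETS words in 25.1%. The shares there were 5.9% for AP-1, 2.88% for FOXA, 65% for CANNTG and 9.89% for CAGCTG. With so few OS, none of these counts was tested, and absence of a word says only that the letters are not in the interval.

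Widths of the 11 OS ran from 134 to 330 bp (median 208 bp), beside a median of 190 bp over the common list. Their GC content ran from 45.1% to 62.7% with a median of 50.7%, beside 49.4% for all common OS. Their numbers in the common list had a median of 957, and 8 of 11 were among the first 2204. The width of 320 bp, that of the Arnt and Vegfa sites, belonged to 1127 common OS, of which 1051 lay in the later part of the list. For 6 of the 11 OS, the 5 at Epas1 and the 1 at Vegfa, a member gene also owned the nearest TSS. The OS of Hif3a, Arnt, Egln1, Vhl and Epo were nearer to the start of another gene, and which gene a site acts on was not tested.

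Other genes of the hypoxia pathway were taken from a list of 70, of which 69 were found in the annotation. At least 1 common OS lay in or within 50 kb of 32 of the 69 (46.4%, beside 27.7% of protein-coding genes), with 48 OS counted over the genes and a median of 0. Flt1, which encodes the VEGF receptor 1, had 5 OS, 3 of them in its body, the same total as Epas1. Kdr, which encodes VEGF receptor 2, had 3 OS, all in its body. Ldha, for the lactate dehydrogenase A subunit, and Ddit4, a hypoxia-induced inhibitor of mTOR signalling, had 3 each. Calcrl and Ramp2, which together form a receptor for adrenomedullin, had 2 each, as did Vegfb, Angptl4, Higd1a and Trf. The body of the gene held an OS in 8 of the 69, beside 7.67% of protein-coding genes.

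Of marker genes of liver cells, 8 of 8 endothelial genes held a common OS by the same rule, from 1 at Cdh5 and Lyve1 to 7 at Eng, and 5 of 6 hepatocyte genes did, with Apoa1 at 0. The Kupffer cell genes had 1 of 4, cholangiocyte genes 0 of 4 and stellate cell genes 0 of 4. In the gene body itself, 5 of 8 endothelial genes, 1 of 6 hepatocyte genes and none of the others held an OS, beside 7.67% of protein-coding genes. Of the 7 OS at Eng, 1 lay in its body. Sites in the flanks can be shared with neighbouring genes. With the 50 kb flanks, the share of all protein-coding genes was 27.7%, so with 4 genes in a group, counts of 0 or 1 do not stand apart from it. The marker genes were chosen with earlier results of these data known, so the higher counts are descriptions too. Kdr was counted both here and among the pathway genes. An OS near a marker is not a measure of expression, and the part that each cell type has in the Epas1 sites was not tested.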

How the data were processed

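Whole liver was assayed by GATA4 ChIP-seq with an input control. Per the labels and the methods, the authors mapped to mm9 using Bowtie 0.12.7, kept uniquely placed ones, called peaks against pooled input by SPP and by MACS2 2.0.10 with thresholds from IDR, and intersected both lists with bedtools 2.16.1, retaining SPP coordinates. The deposited score is 1000 for every peak. Read depth is not in the files used here.

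The reference (NCBI Build 37) is of the same build, and all peaks of the 3 lists ended within its chromosomes. Genes were those of GENCODE M1, counted by gene identifier. A gene held a site when the midpoint lay in its body or within 50 kb. Coordinates are counted from 1. Motifs were matched exactly on both strands. Intervals are Wilson intervals at 95% and cover counting error only. Member genes and lists were chosen with earlier results of these data known, and nothing was tested for significance. Every OS of a member is described. Pathway genes are named from 2 OS upward, since the planned 5 leading genes ended in a tie. Sites above 300 bp are printed as their central 200 bp, and 1 over a Pop7 exon as 30 bp.

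Results were recomputed for 71 pairs of a result and another setting, such as a narrower window, with 108 recounts for single genes other than Epas1, and 2 more pairs were chosen after seeing the data. The software was Python 3.11.15, samtools 1.23.1, pysam 0.24.0, numpy 2.4.6, scipy 1.17.1 and matplotlib 3.10.9, and window counts and motif searches were first tested on simulated data. Promoter sequences of another build (GRCm38) were not used.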

Additional observations from a re-analysis of the deposited data

How the results depend on the processing

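With the gene body only, or with 5, 10 or 20 kb on each side, the genes held 7 OS at 3 genes in each case. The share of all genes with an OS was then 5.09%, 8.13%, 10.1% and 13.8%, and 8, 13, 15 and 21 of the 69 pathway genes had one. At 100 kb, 34.4% of all genes had one. Assigning each OS to the single nearest TSS within 50 kb left 5 OS at 2 genes (4 at Epas1, 1 at Vegfa) and 15 pathway genes. The share of all genes was not computed at this setting, so these counts have no background beside them. In the first 2204 sites of the common list, 4 genes, 17 pathway genes and 13.2% of all genes had an OS. When at least 50% of the wider peak had to be covered, which kept 864 common OS, there remained 2 OS at 2 genes, 0 at Epas1, 5 pathway genes and 6.10% of all genes. MACS2 peaks had a median width of 618 bp and SPP peaks of 199 bp, so few sites could meet this setting. The SPP list gave 24.4%, the MACS2 list 28.5% and protein-coding transcripts alone 27.6% of genes with an OS. Without the long Epo transcript, an alternative chosen after seeing the data, the gene bodies held 6 OS at 2 genes. The share of OS with WGATAR rose from 81.8% to 100% with WGATA or GATAR and to 100% with the GATA core alone, and kept within its interval in 6 of 8 alternatives. Every WGATAR holds these shorter words, so with them the share could not fall, and with the central 100 bp it could not rise. The interval, 52.3 to 94.9 from 11 OS, is wide, so keeping within it says little. With a largest gap of 5 kb there were 0 groups of neighbouring OS at Epas1, where 10 kb gave 1. A gap of 20 kb also gave 1 group, of 3 OS rather than 2. The number of OS at Epas1 was within 1.5 times of 5 in 11 of 12 alternatives. Most of these could not lower it, since all 5 lie in the gene body and the SPP and MACS2 lists include the common sites. The first 2204 sites, the nearest TSS and the 50% overlap could lower it, and gave 5, 4 and 0. Of 108 recounts for single genes other than Epas1, 30 moved beyond that limit, all at the 6 genes with an OS. The 3 genes without an OS had 0 in each setting, and a narrower window or stricter list could not have lowered that. No paired analysis was possible because the labels give 1 ChIP sample and no replicate numbers. Without read counts, the depth behind a site is unknown, and a missing site says that none was called.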

Other observations

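Upstream of Epas1, the next common OS was number 2043, 76.8 kb from the Epas1 TSS and beyond the 50 kb limit. It lay between Epas1 and Prkce, the gene for protein kinase C epsilon, which ends before it and held 10 common OS in its body and 11 with its 50 kb flanks. This OS had 1 WGATAR, and its MACS2 peak was number 4347. Upstream of Epo, the next common OS was number 1958, 95.8 kb from the start of Epo-001, and it had no WGATAR.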
